A study of Mus musculus with 20 samples.

Results

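The 10 genes described here mark the inhibitory interneurons of the hippocampus or their precursors: *Gad1*, *Gad2*, *Slc32a1*, *Sst*, *Pvalb*, *Npy*, *Vip*, *Cck*, *Dlx1* and *Dlx5*. They were taken as a fixed list by symbol, out of 19888 symbols in the RIP-seq files and 23781 in the mRNA-seq files. The rule takes them by name and uses no measured value, although the list was drawn up with earlier results of these data known. In the RIP-seq they had 16 rows, each an annotated 3′UTR of an Ensembl transcript. In the mRNA-seq they had 12 RefSeq transcripts, which were summed per gene.

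Hippocampal interneurons release GABA and make up a minority of hippocampal neurons, between the far more numerous glutamatergic pyramidal and granule cells. All of them need an enzyme that makes GABA and a transporter that loads it into synaptic vesicles, and subtypes are told apart by the neuropeptides and calcium-binding proteins they contain. miRNAs guide Argonaute proteins such as AGO2 to sites that are mostly in 3′UTRs, so an mRNA that comes down with AGO2 can be read as one engaged by the miRNA machinery. A sponge is a transgenic transcript with many binding sites for 1 miRNA, which it draws away from the natural targets.

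All mice were adult C57BL/6 and received AAV5 vectors in the hippocampus, apart from the sham-injected mice. The RIP-seq had 4 groups of 2 libraries, in which RNA was precipitated with a GFP antibody. In 3 of them the vector made GFP-AGO2 together with a sponge, against miR-124 (miR124sp), miR-125 (miR125sp) or, as control, miR-292 (miR292sp), and the last was sham. The mRNA-seq of whole hippocampus had 12 single mice: 3 with GFP and the miR-124 sponge against 3 with GFP alone, and 3 with GFP and the miR-125 sponge against 3 others with GFP alone. A human synapsin promoter drove every transgene, so that the tagged AGO2 was made in neurons and not in a chosen neuron class. Each RIP library pooled the lysate of 2 hippocampi. The labels call the cells hippocampal neurons, although the material was tissue, and markers of astrocytes, oligodendrocytes, microglia and vessels were present in both assays.

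Total counts were 2.42 to 5.07 M per RIP library and 6.95 to 27.83 M per mRNA library (M for 1000000 counts). The headers of 8 mRNA libraries carry a mark that the sources used here do not explain, and those of miR124sp mice 2 and 9 and of GFP mice 14 and 15 of the miR-125 experiment do not. No pair of libraries within an assay held identical counts. In whole tissue, fewer cells of a type and less RNA per cell cannot be told apart.

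Of the miRNAs that the sponges address, RefSeq (GRCm38.p6) gave the mature sequences of the miR-125 family, which are shown because the miR-125 sponge was built to bind them. Capitals mark the seed, bases 2 to 8, which both share.
miR-125a-5p: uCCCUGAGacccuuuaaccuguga
miR-125b-5p: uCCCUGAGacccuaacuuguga
The 3′UTRs of 9 of the 10 genes could be read from the NCBIM37 (mm9) genome, and CTCAGGG, the complement of this seed on the transcribed strand, occurred in none of them, which says only that these letters are not in these windows. Among all 7433 tested 3′UTRs that could be read, 16.5% held it. The share depends on length: 28.3% of 3′UTRs of like length held it for *Gad2* (3528 bases), 14.0% for *Gad1* (1218 bases), 9.52% for *Slc32a1* (744 bases) and 1.82% for *Sst* (148 bases). The 3′UTR of *Vip* was not read because its length in the files differs from the annotation. miR-124 and miR-292 are the targets of the other sponges.

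Before any fold change, it matters which members could be measured at all. In the RIP-seq, 8 of the 10 genes had a 3′UTR with at least 10 counts in every library, the minimum for the test, out of 8203 3′UTRs that passed it. *Vip* missed that minimum through its sham libraries. *Pvalb*, the parvalbumin of fast-spiking basket cells, had 0 counts in all 8 libraries at both of its 3′UTR rows (chromosome 15, 78021544 to 78022095), which share 549 of 552 bases. Of the 14739 rows that lie at least 95% inside other rows, 90.4% were at 0 in all 8 libraries, against 22.9% of the 14835 rows that share no base. The zero of *Pvalb* is therefore no measure of its binding to AGO2.

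In the mRNA-seq, *Cck* had 0 to 11 counts and *Dlx5* 0 to 10 counts per mouse, and neither was tested. Both have more than 1 RefSeq transcript, and such genes had a median of 32 counts over the 12 mice, against 560 for genes with a single transcript. The sources used here do not state what was done with reads that fit several transcripts. *Cck* was well counted in the RIP-seq, so that its near absence from the mRNA tables is not a level of the tissue. The other 8 genes were tested.

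The first comparison, miR292sp against sham, asks which mRNAs came down with GFP-AGO2 above background. The GABA enzyme *Gad1*, the vesicular GABA transporter *Slc32a1* and the transcription factor *Dlx5* were enriched 4.53 to 4.86-fold. The other GABA enzyme, *Gad2*, was enriched 1.46-fold, though it was lower than sham when scaled by TMM. The other homeobox gene, *Dlx1*, had a relative enrichment of 1.37 and 2.03 in miR292sp and did not pass. The neuropeptide genes *Sst*, *Npy* and *Cck* did not pass, and were lower than sham when scaled by TMM. Relative enrichment is the count divided by the mean count of a reference set (*Gapdh* with its 50 neighbours above and 50 below when 3′UTRs are ranked by the raw miR292sp to sham ratio), divided again by the sham mean of that value. By edgeR (quasi-likelihood, p adjusted after Benjamini-Hochberg over all 3′UTRs), 4 of the 8 genes tested were higher and 0 lower (0 lower at an unadjusted p under 0.05 as well, and 0 lower by DESeq2). The background was high, since 59.4% of all 3′UTRs tested passed as higher and 0.585% as lower, so that 4 of 8 is no more than the share over all 3′UTRs. The median log2 fold change was 0.66 over the 8 genes and 1.26 over all 3′UTRs.

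*Gad1* encodes GAD67, the enzyme that makes most of the GABA of the brain. Its 3′UTR (chromosome 2, 70438854 to 70440071, plus strand) had 826 and 760 counts in the miR292sp libraries, against 228 and 256 in sham. Relative enrichment was 4.99 and 4.36 in miR292sp, against 0.826 and 1.17 in sham. The groups did not overlap, and the log2 fold change was 2.23 ± 0.26 (SE, n = 2 each, edgeR adjusted p = 9.36e-07).

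*Gad2* encodes GAD65, the form of the enzyme at axon terminals. Its 3′UTR (chromosome 2, 22545867 to 22549394, plus strand) had 2076 and 1723 counts in miR292sp, against 2104 and 1680 in sham, the highest counts of the list. Relative enrichment was 1.64 and 1.29 in miR292sp, against 0.995 and 1.01 in sham. The log2 fold change was 0.55 ± 0.18 (SE, n = 2 each, edgeR adjusted p = 0.0154). It passed neither without miR292sp replicate 5 (log2 0.27) nor without sham replicate 8 (log2 0.08).

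The enrichment of the 2 GAD enzymes thus differed in size within the same libraries: *Gad1* stood above 78.3% of all 3′UTRs tested and *Gad2* above 26.4%. A scaling factor is common to both genes and leaves their ratio as it is. The difference between them was not tested.

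*Slc32a1* encodes VGAT, which loads GABA into vesicles. Its 3′UTR (chromosome 2, 158440741 to 158441484, plus strand) had 133 and 125 counts in miR292sp, against 66 and 16 in sham. Relative enrichment was 5.14 and 4.59 in miR292sp, against 1.53 and 0.47 in sham. The groups did not overlap, but the sham libraries lay far apart. The log2 fold change was 2.26 ± 0.54 (SE, n = 2 each, edgeR adjusted p = 0.00141). Without sham replicate 8 it was 1.19 and no longer passed (adjusted p = 0.0748).

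*Dlx5* and *Dlx1* are homeobox genes that drive the development of interneurons from the ganglionic eminences. The 3′UTR of *Dlx5* (chromosome 6, 6827805 to 6828158, minus strand) had 210 and 158 counts in miR292sp, against 30 and 81 in sham. Relative enrichment was 5.28 and 3.78 in miR292sp, against 0.453 and 1.55 in sham. The log2 fold change was 2.19 ± 0.53 (SE, n = 2 each, edgeR adjusted p = 0.00164).

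For *Dlx1* (chromosome 2, 71370576 to 71372037, plus strand) the counts were 151 and 235 in miR292sp, against 217 and 118 in sham. The log2 fold change was 0.76 ± 0.36 (SE, n = 2 each, edgeR adjusted p = 0.076), which did not pass. The antisense gene *Dlx1as* covers the whole of this 3′UTR, and the sources used here do not state whether strand was counted, so reads of both genes cannot be told apart. The value of *Dlx1* rested on the sham libraries: it passed at a log2 fold change of 1.46 without sham replicate 7 and was at 0.05 without sham replicate 8.

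The peptide genes did not pass. *Sst*, which encodes somatostatin (chromosome 16, 23889667 to 23889814, minus strand), had a relative enrichment of 1.10 and 1.69 in miR292sp, against 1.02 and 0.984 in sham, with a log2 fold change of 0.48 ± 0.33 (SE, n = 2 each, edgeR adjusted p = 0.222). *Npy*, which encodes neuropeptide Y (chromosome 6, 49779327 to 49779506, plus strand), had 0.905 and 0.976 in miR292sp, inside the range of sham at 0.727 and 1.27. *Cck*, which encodes cholecystokinin (chromosome 9, 121398943 to 121399291, minus strand), had 1.05 and 1.35 in miR292sp, which overlapped with sham at 0.771 and 1.23. Without sham replicate 7 *Sst* passed as higher, at a log2 fold change of 0.90, and without sham replicate 8 it was at -0.01. *Npy* is also made outside interneurons in some states, and *Cck* is expressed by pyramidal cells as well.

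*Vip* encodes vasoactive intestinal peptide, a peptide of interneurons that inhibit other interneurons. It had 94 and 101 counts in miR292sp, against 5 and 9 in sham. Relative enrichment was 19.1 and 19.5 in miR292sp, against 0.61 and 1.39 in sham. It missed the count minimum of the test, and looser filters let it in only through the libraries where it is high. Relative enrichment is itself a ratio to the sham mean, which rests here on 5 and 9 counts. No tested fold change or p is given for it here.

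**Figure D1:**
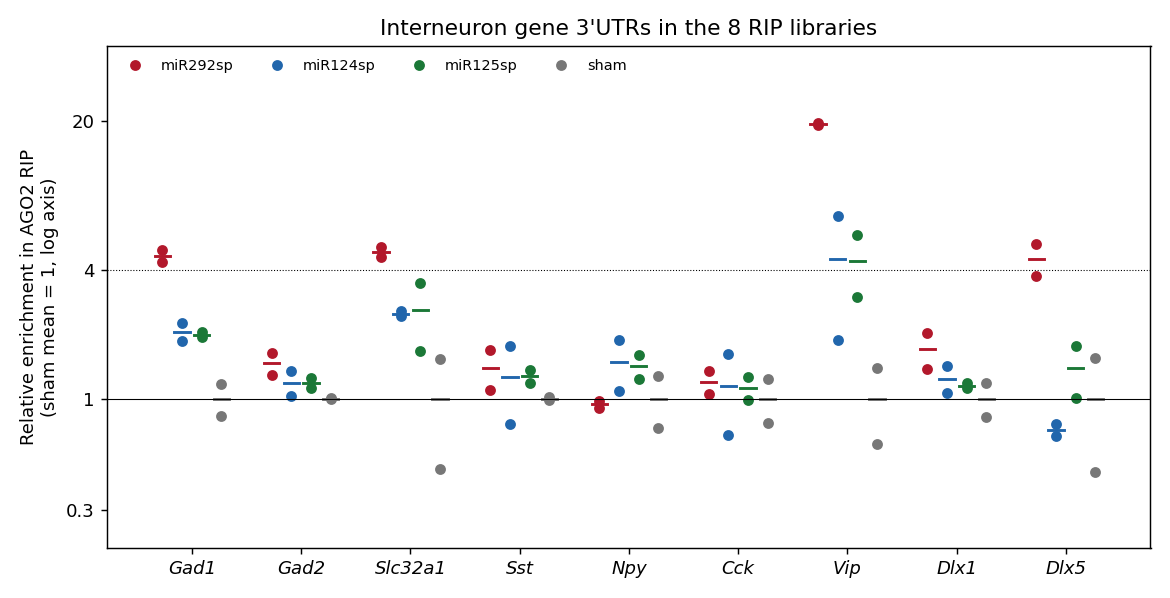
Relative enrichment in the AGO2 RIP of 9 interneuron genes (log axis, sham mean = 1) in each of 2 libraries of miR292sp, miR124sp, miR125sp and sham, with points for libraries, short lines for group means and a dotted line at 4-fold. *Gad1*, *Slc32a1* and *Dlx5* average 4.53 to 4.86 in miR292sp, while *Npy* averages 0.941 there. *Vip*, at an average of 19.3, was not tested, and its sham libraries hold 5 and 9 counts.

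In the study's own terms a target was an mRNA above 4-fold. *Gad1* (4.67 ± 0.443), *Slc32a1* (4.86 ± 0.389) and *Dlx5* (4.53 ± 1.06, SD, n = 2 each) lay above that line in miR292sp and the other 5 tested genes below it, where 27.2% of all 3′UTRs tested lay above. Replicate 6 of *Dlx5*, at 3.78, was below the line.

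These directions depend on what is held constant. With TMM scaling, which takes most 3′UTRs as unchanged, the median of all 3′UTRs moved from a log2 fold change of 1.26 to -0.11, and 1768 3′UTRs passed as higher and 1563 as lower, in place of 4872 and 48. Under TMM, *Gad1* was still higher in miR292sp (log2 0.87 ± 0.24, SE, edgeR adjusted p = 0.00764), while *Gad2* (-0.82 ± 0.20), *Sst* (-0.88 ± 0.31), *Npy* (-1.43 ± 0.40) and *Cck* (-1.09 ± 0.37) were lower than in sham and passed. *Slc32a1* and *Dlx5* kept a positive value and did not pass. The libraries differed in composition as well: the 10 astrocyte markers summed to 15023 to 15763 CPM (counts scaled to a library total of 1000000) in miR292sp, against 62693 to 63061 CPM in sham, and the part of this difference in the scalings was not tested. The markers did not all move alike. Of the 9 measured, 3 passed as higher in miR292sp and 2 as lower when scaled around *Gapdh*, and 0 and 5 by TMM.

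**Figure D2:**
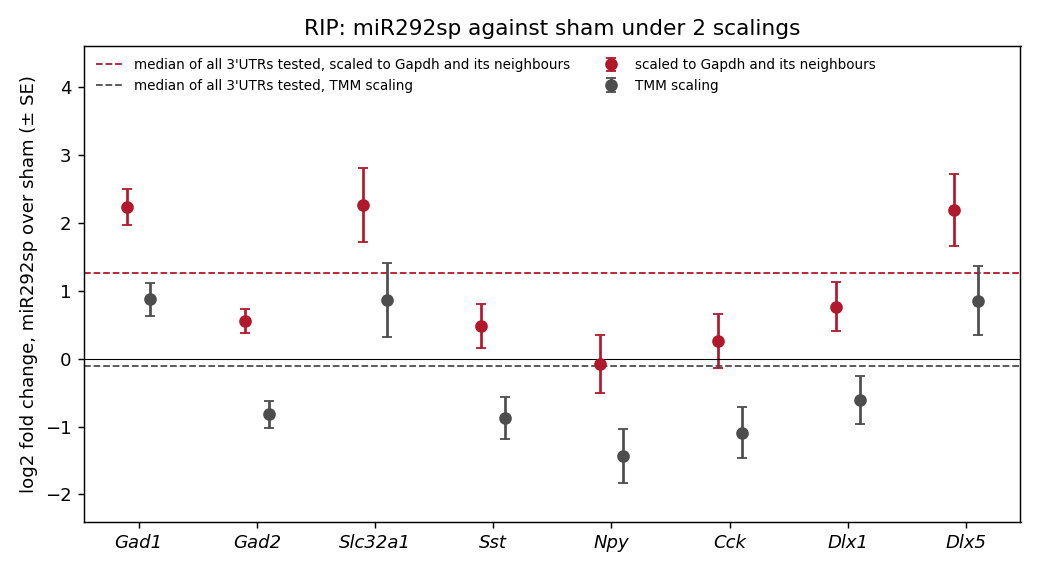
Log2 fold change of miR292sp over sham (± SE from the fit, 2 libraries each) for 8 interneuron genes, scaled to *Gapdh* and its neighbours (red) or by TMM (grey), with dashed lines at the median of all 8203 3′UTRs. *Gad1* is above 0 under both, and *Gad2* changes from 0.55 to -0.82.

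Other genes of the GABA synapse and of interneurons were taken from lists of known genes. Of 10 genes of GABA handling, 6 were measured and 5 passed as higher, among them *Abat* (log2 1.55), which degrades GABA, and *Gphn* (log2 1.46), which encodes the scaffold gephyrin. The list median was 1.35, against 1.26 over all 3′UTRs. Of the 13 receptors for the peptides, 7 were measured and 5 passed as higher, led by the somatostatin receptor *Sstr3* (log2 3.79 ± 0.31) and the VIP receptor *Vipr1* (log2 2.1 ± 0.35, edgeR adjusted p = 3.86e-05), and the list median was 1.11. Of 36 further interneuron markers, 17 were measured and 6 passed as higher, with a median of 0.85, led by *Dlx2* (log2 2.83) and *Elfn1* (log2 2.42), a synaptic protein of somatostatin cells. Of the 18 markers of glutamatergic neurons, 13 were measured and 9 passed as higher, with a median of 1.88. None of these lists had a member that passed as lower, where 59.4% of all 3′UTRs passed as higher and 0.585% as lower. By TMM the GABA handling list had 0 higher and 2 lower, the receptors 1 and 2, the further interneuron markers 3 and 6, and the glutamatergic list 6 and 3.

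The second comparison set the miR-124 sponge against the control sponge, to see which mRNAs changed in the AGO2 fraction when miR-124 was drawn away. Here TMM was the main scaling. *Gad2* and *Npy* were higher with miR124sp and no member was lower, but neither gene passed when scaled around *Gapdh*. Over all 3′UTRs, 5.1% passed as higher and 3.45% as lower, and 2 of the 8 members passed as higher and 0 as lower (edgeR, with 1 lower by DESeq2, *Dlx5*). The members' median log2 fold change was 0.63, against 0.04 over all 3′UTRs.

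*Npy* had 36.3 and 62.2 CPM in miR124sp, against 14.6 and 16.8 CPM in miR292sp. The groups did not overlap, and the log2 fold change was 1.64 ± 0.40 (SE, n = 2 each, edgeR adjusted p = 0.0197). *Gad2* had 702 and 526 CPM in miR124sp, against 409 and 345 CPM in miR292sp, a log2 fold change of 0.72 ± 0.20 (SE, n = 2 each, edgeR adjusted p = 0.033). The sham libraries stood at 33.8 and 56.7 CPM for *Npy* and at 718 and 695 CPM for *Gad2*, close to the miR124sp libraries for both genes.

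Leaving out either miR292sp library left 0 members past the threshold, and the calls over all 3′UTRs fell as well, to 51 higher and 10 lower without replicate 5 and to 78 and 16 without replicate 6. *Npy* did not pass without miR124sp replicate 4 (log2 1.28), nor *Gad2* without replicate 3 (log2 0.43).

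*Dlx5* moved the other way without passing. It had 10.9 and 12.2 CPM in miR124sp, against 41.4 and 31.7 CPM in miR292sp, a log2 fold change of -1.65 ± 0.52 (SE, n = 2 each, edgeR adjusted p = 0.0581). The sham libraries at 10.2 and 33.5 CPM spanned most of that range. *Sst* (log2 0.82), *Cck* (log2 0.91) and *Dlx1* (log2 0.53) were nominally positive and did not pass, and *Slc32a1* was at 0.05.

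Scaled to *Gapdh* and its neighbours instead, 17 3′UTRs passed as higher and 4105 as lower, in place of 418 and 283, and the median of all 3′UTRs was -0.97. Then neither *Gad2* (log2 -0.30) nor *Npy* (log2 0.65) passed, while *Gad1* (log2 -1.18 ± 0.25, edgeR adjusted p = 0.000948) and *Dlx5* (log2 -2.66 ± 0.54, edgeR adjusted p = 0.000711) were lower with miR124sp. On that scale relative enrichment of *Gad1* was 1.86 and 2.26 in miR124sp, against 4.99 and 4.36 in miR292sp. For *Slc32a1* it was 2.56 and 2.44 in miR124sp, against 5.14 and 4.59 in miR292sp, and its change did not pass. *Vip* had 7.15 and 1.88 in miR124sp, against 19.1 and 19.5 in miR292sp. It missed the count minimum of the test, so no tested fold change or p is given for it in this comparison either.

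The astrocyte markers moved with this comparison too. They summed to 43676 to 44097 CPM in miR124sp, against 15023 to 15763 CPM in miR292sp, and 4 of the 9 measured passed as higher with 0 lower, including the glutamate transporter *Slc1a2* (log2 1.53 ± 0.10), against 2 higher and 1 lower when scaled around *Gapdh*. Their part in the values of *Gad2* and *Npy* was not tested. Of the peptide receptors, *Npy1r* was higher (log2 0.98) and *Sstr3* lower (log2 -1.17), and 0 of 6 genes of GABA handling passed in edgeR. Of the 17 further interneuron markers only *Hapln1*, a component of perineuronal nets, passed (log2 1.06, higher). Scaled around *Gapdh*, 5 of the 6 genes of GABA handling and 5 of the 17 further markers were lower with miR124sp and none was higher. Of the 7 peptide receptors 4 were lower and none was higher. Over all 8203 3′UTRs, 4105 were lower and 17 higher on that scale, with a median log2 fold change of -0.97. The list medians were -0.76 for GABA handling, -0.90 for the further markers and -0.84 for the receptors. Of the 13 glutamatergic markers measured, 10 were lower and 0 higher, with a median of -1.26.

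The miR-125 sponge was set against the same miR292sp libraries, so that both sponge comparisons share them. In edgeR 0 of the 8 members passed in miR125sp against miR292sp, with 2 at an unadjusted p under 0.05 and 1 by DESeq2 (*Npy*). Over all 3′UTRs, 1.18% passed as higher and 0.232% as lower. *Npy* had 34.6 and 47.6 CPM in miR125sp, against 14.6 and 16.8 CPM in miR292sp (log2 1.37 ± 0.40, SE, n = 2 each, edgeR adjusted p = 0.0959). *Gad2* had 546 and 518 CPM in miR125sp, against 409 and 345 CPM in miR292sp (log2 0.48 ± 0.20, SE, n = 2 each, edgeR adjusted p = 0.223). Neither gene passed in edgeR, and the astrocyte markers summed to 34748 to 37195 CPM in miR125sp.

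Scaled to *Gapdh* and its neighbours, 18 3′UTRs passed as higher and 3132 as lower with miR125sp, in place of 97 and 19. *Gad1* (log2 -1.23 ± 0.25, edgeR adjusted p = 0.00145) and *Dlx5* (log2 -1.70 ± 0.52, edgeR adjusted p = 0.0164) were then lower with miR125sp.

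Set directly against each other, the sponges gave no member that passed. In miR124sp against miR125sp, 0 of the 8 members passed in edgeR, 0 had an unadjusted p under 0.05 and 0 passed by DESeq2, where 0% of all 3′UTRs passed as higher and 0.0122% as lower. The log2 differences ran from -0.74 ± 0.53 for *Dlx5* to 0.33 ± 0.35 for *Dlx1*. A p that misses the threshold with 2 libraries a group does not show equal binding.

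The mRNA-seq measured whole hippocampus. Levels between genes are given per kilobase of transcript (CPM per kb), over the 6 GFP mice. *Sst* was highest at 368 ± 36.6 CPM per kb, followed by *Gad1* at 156 ± 31.8, *Npy* at 80.1 ± 8.02, *Gad2* at 52.3 ± 11.1, *Pvalb* at 42.1 ± 4.20, *Slc32a1* at 36.0 ± 6.34, *Vip* at 18.0 ± 2.69 and *Dlx1* at 6.64 ± 0.415 (SD, n = 6 each). The ranges of *Gad2*, *Pvalb* and *Slc32a1* overlapped, and the other neighbours in this order did not overlap.

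In mice with the miR-124 sponge, 3 of the 8 genes had higher mRNA levels than in the GFP mice of that experiment. *Gad1*, *Slc32a1* and *Pvalb* passed as higher and 0 of the 8 genes tested as lower (edgeR, with 0 lower at an unadjusted p under 0.05 and 0 lower by DESeq2). Over all 13111 genes, 12.5% passed as higher and 10.7% as lower. The median log2 fold change was 0.44 over the members and -0.01 over all genes.

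*Gad1* mRNA was at 682, 674 and 564.5 CPM in miR124sp mice, against 429, 354 and 490 CPM in GFP mice. The groups did not overlap, and the log2 fold change was 0.63 ± 0.13 (SE, n = 3 each, edgeR adjusted p = 0.00948). *Slc32a1* was at 141, 125 and 119 CPM in miR124sp mice, against 92.3, 69.0 and 108 CPM in GFP mice, a log2 fold change of 0.56 ± 0.14 (SE, n = 3 each, edgeR adjusted p = 0.0216). *Gad2* was at 333, 331 and 308 CPM in miR124sp mice, against 252, 196 and 307 CPM in GFP mice, and did not pass (log2 0.40 ± 0.14, SE, n = 3 each, edgeR adjusted p = 0.0635). All 3 genes were lowest in GFP mouse 20.

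*Pvalb* was at 80.6, 59.2 and 42.7 CPM in miR124sp mice, against 39.6, 38.8 and 34.2 CPM in GFP mice, with a log2 fold change of 0.74 ± 0.19 (SE, n = 3 each, edgeR adjusted p = 0.021). The miR124sp mice differed from each other more than the GFP mice did. *Vip* was at 46.9, 43.5 and 25.7 CPM in miR124sp mice, against 32.6, 26.9 and 26.3 CPM in GFP mice, and did not pass (log2 0.48 ± 0.19). *Sst* (log2 0.04 ± 0.10), *Npy* (log2 0.23 ± 0.10) and *Dlx1* (log2 0.00 ± 0.10) did not pass, and the groups overlapped for each.

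These calls changed when single mice were left out, and the calls over all genes moved as well. From 1637 higher and 1409 lower, they went to 523 and 508 without miR124sp mouse 2 and to 674 and 677 without mouse 14. Without miR124sp mouse 9 they were 2032 and 2031. Without GFP mouse 15 they were 461 and 519, without GFP mouse 20 1091 and 1122, and without GFP mouse 8 1282 and 1200. Without miR124sp mouse 2 no member passed, and *Gad1* was at an adjusted p of 0.0511 (log2 0.59, edgeR). Without miR124sp mouse 14, or without GFP mouse 15, only *Gad1* passed. The fold changes of lost calls stayed similar in some of these fits: *Slc32a1* was at 0.56 and *Pvalb* at 0.77 without GFP mouse 15, and at 0.57 and 0.76 without miR124sp mouse 2. Without miR124sp mouse 9 there were 5 members past the threshold, *Gad2* and *Vip* being added. *Pvalb* also failed to pass without GFP mouse 20 (log2 0.77) and without GFP mouse 8 (log2 0.68), where *Gad2* (log2 0.57) and *Npy* (log2 0.32) passed as higher. With a term for the header mark, the log2 fold changes were 0.72 for *Gad1*, 1.14 for *Pvalb* and 0.69 for *Slc32a1*. All GFP mice of this experiment carry the mark, and of the miR124sp mice only mouse 14 does. Those values therefore rest on miR124sp mouse 14 alone.

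**Figure D3:**
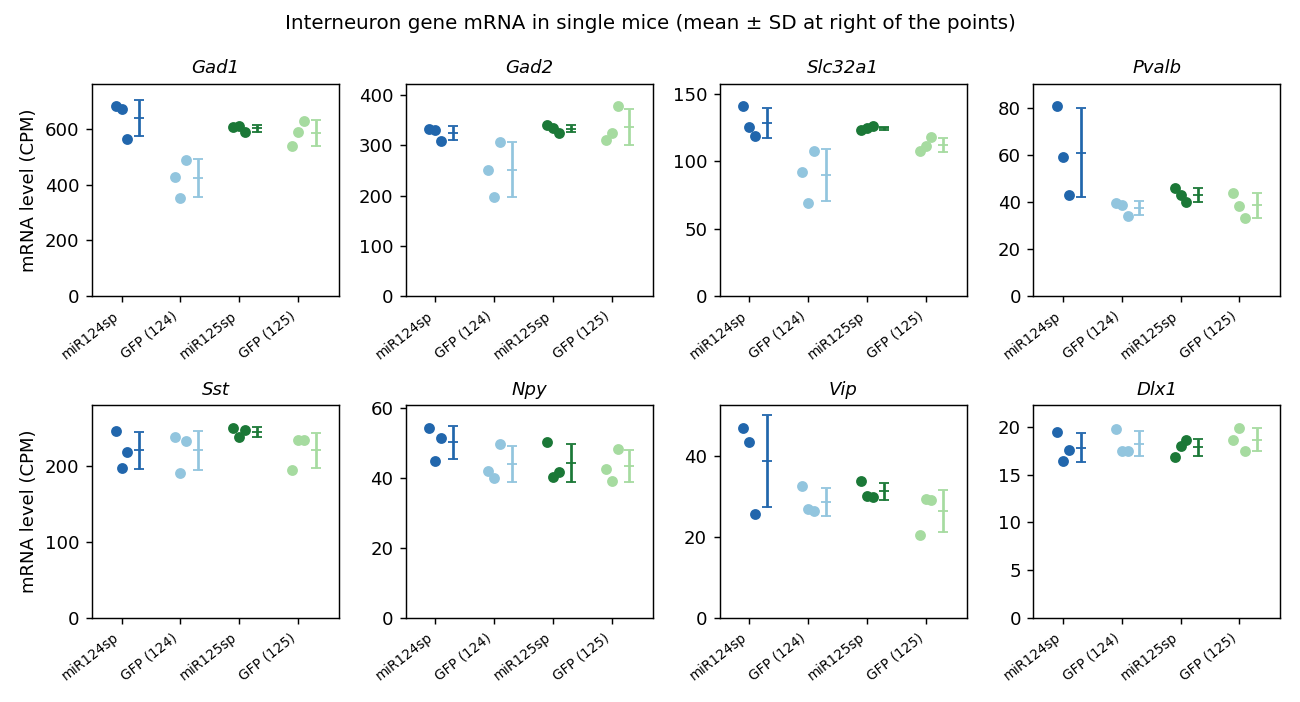
mRNA level in CPM (axes start at 0) of 8 interneuron genes in 12 single mice: miR124sp, GFP of the miR-124 experiment, miR125sp and GFP of the miR-125 experiment, 3 mice each, with mean ± SD beside the points. For *Gad1* the GFP mice of the miR-124 experiment (354 to 490) lie below the other 9 mice (540 to 682).

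With the miR-125 sponge no member passed. In edgeR 0 of the 8 members passed in miR125sp against GFP, with 2 at an unadjusted p under 0.05 (*Slc32a1* and *Sst*) and 0 by DESeq2, where 0.0548% of 12771 genes passed as higher and 0.172% as lower. *Gad1* was at 610, 611 and 589 CPM in miR125sp mice, against 540, 589 and 630 CPM in GFP mice (log2 0.05 ± 0.05, SE, n = 3 each). *Slc32a1* was at 123.5, 124.5 and 125.8 CPM in miR125sp mice, against 108, 111 and 118 CPM in GFP mice. It did not pass (log2 0.16 ± 0.05, edgeR adjusted p = 0.185). *Pvalb* was at 45.9, 42.9 and 40.0 CPM in miR125sp mice, against 43.7, 38.4 and 33.3 CPM in GFP mice (log2 0.21 ± 0.10).

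The test of the difference between both sponge effects over the 12 mice called 1 of the 8 members in edgeR. It was *Gad1*, whose effect of miR124sp exceeded that of miR125sp by 0.57 ± 0.15 (log2, SE, edgeR adjusted p = 0.0217), where 7.38% of 13413 genes passed as higher and 7.06% as lower. The differences for *Gad2* (0.40 ± 0.17), *Slc32a1* (0.39 ± 0.16) and *Pvalb* (0.53 ± 0.24) did not pass.

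The GFP mice of the 2 experiments differed from each other for *Gad1*, *Gad2* and *Slc32a1*. This comparison was chosen after the values were seen, and it uses the control mice of the tests above. *Gad1* was at 429, 354 and 490 CPM in the GFP mice of the miR-124 experiment, against 540, 589 and 630 CPM in those of the miR-125 experiment. The log2 difference was -0.50 ± 0.11 (SE, n = 3 each, edgeR adjusted p = 0.00272). *Gad2* (log2 -0.46 ± 0.12, edgeR adjusted p = 0.0101) and *Slc32a1* (log2 -0.36 ± 0.12, edgeR adjusted p = 0.0282) were lower as well, and *Pvalb* was not (log2 -0.05 ± 0.17). In all, 3 of the 8 members passed as lower and 0 as higher, where 16.3% of all genes passed as lower and 16.3% as higher.

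Against the GFP mice of the miR-125 experiment, *Gad1* in miR124sp mice was at a log2 fold change of 0.12 ± 0.11 and *Slc32a1* at 0.19 ± 0.12, and neither passed. *Gad2* was at -0.06 ± 0.12. *Pvalb* was at 0.69 ± 0.17 and passed as higher (edgeR adjusted p = 0.0361), as it did against the GFP mice of its own experiment. Both comparisons use the same miR124sp mice. The groups overlapped for *Pvalb* here, with miR124sp mouse 9 at 42.7 CPM and GFP mouse 14 at 43.7 CPM. The use of these GFP mice as reference was also chosen after the values were seen.

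**Figure D4:**
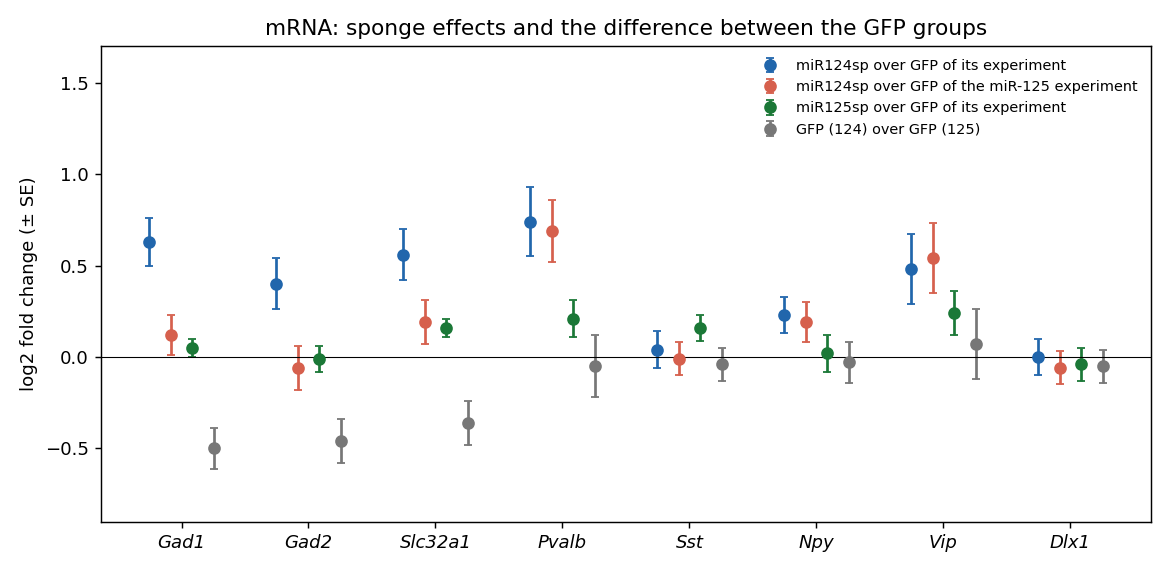
Log2 fold change (± SE from the fit, 3 mice in each group) of 8 interneuron genes for miR124sp over the GFP mice of its experiment, miR124sp over the GFP mice of the miR-125 experiment, miR125sp over the GFP mice of its experiment, and the GFP mice of the miR-124 experiment over those of the miR-125 experiment. For *Gad1* the values are 0.63, 0.12, 0.05 and -0.50, and for *Pvalb* 0.74, 0.69, 0.21 and -0.05.

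Markers of other cell types moved with the miR-124 comparison, in which 12.5% of all genes passed as higher and 10.7% as lower. The 10 astrocyte markers summed to 3840 to 4012 CPM in miR124sp mice, against 4876 to 5780 CPM in the GFP mice of that experiment, and 6 of 9 passed as lower and 0 as higher. In the GFP mice of the miR-125 experiment that sum was 3835 to 4044 CPM. Of 9 oligodendrocyte and myelin markers 6 passed as higher and 0 as lower, with sums of 948 to 1199 CPM in miR124sp mice, against 720 to 801 CPM in GFP mice of the same experiment and 628 to 792 CPM in those of the miR-125 experiment. Of 8 microglia markers 5 passed as lower and 0 as higher, with sums of 529 to 557 CPM in miR124sp mice, against 606 to 683 CPM in GFP mice of the same experiment and 554 to 579 CPM in those of the miR-125 experiment. Of 18 glutamatergic markers 7 passed as higher and 4 as lower, and against the GFP mice of the miR-125 experiment 2 and 1. The first counts included *Tbr1* (log2 1.18), which is known from the neocortex, as higher, and *Spink8* (log2 -1.0), a marker of CA1 pyramidal cells, as lower. The part of these differences in the values of *Gad1*, *Slc32a1* and *Pvalb* was not tested.

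Of 31 further interneuron markers measured, 8 passed as higher and 1 as lower, with a median of 0.23. *Lamp5* (log2 1.1) and *Reln* (log2 0.75) were higher, and *Nr2f2* (log2 -1.09) was lower. *Reln*, which encodes the secreted protein reelin, was also lower in the GFP mice of the miR-124 experiment than in those of the miR-125 experiment (log2 -0.77). Of 11 peptide receptors 2 were higher, including the cholecystokinin receptor *Cckbr* (log2 1.25 ± 0.27), and 1 was lower. Of 10 genes of GABA handling 1 was higher and 3 were lower. Over all 13111 genes, 12.5% passed as higher and 10.7% as lower. Against the GFP mice of the miR-125 experiment, 1 of the 31 further markers was higher and 3 were lower.

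Across the 12 mice *Gad2* had its closest pattern, by Pearson's r of log2 CPM, in *Nkrf* (0.975), *Atp1b1* (0.975), *Cse1l* (0.972), *Appbp2* (0.968) and *Nrxn3* (0.961). *Gad1* (0.936) was 18th and *Slc32a1* (0.921) 36th of the other genes, and the values were lower for *Sst* (0.546), *Npy* (0.461), *Vip* (0.267), *Pvalb* (0.221) and *Dlx1* (0.026). The mice fall into groups that differ in *Gad2*, so these values describe the shared libraries only.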

How the data were processed

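The authors deposited raw counts, per annotated 3′UTR for the RIP-seq and per RefSeq transcript for the mRNA-seq. They mapped reads to mm9 according to the methods, whereas the submitters' processing notes name STAR, edgeR and mm10. The sources used here do not name the counting program. Symbols and coordinates came from GENCODE M1 on NCBIM37, where 98.0% of 38158 3′UTRs were named and 82.5% matched in length, and 98.7% of 32850 RefSeq transcripts were named (the others held 0.849% of counts). edgeR 4.0.16 (quasi-likelihood, R 4.3.3) was run over all features with Benjamini-Hochberg adjustment at 0.05. The 8 RIP libraries shared 1 fit on 3′UTRs with at least 10 counts in every library, scaled to 101 reference 3′UTRs around *Gapdh* for sham and by TMM between sponges. Each mRNA experiment was fitted after filterByExpr with TMM, and their difference over 12 mice. Alternatives were DESeq2 1.42.0, other scalings, filters and samples left out. Scripts were tested on simulated data. Python 3.11.15, numpy 2.4.6, pandas 2.3.3 and matplotlib 3.10.9 were used. The members and gene lists were chosen with earlier results of these data known. All members are named, and from other lists at most the 4 largest changes past the threshold. Replicates are separate libraries, and p-values set a difference against the spread between libraries of a group. That spread was estimated over all groups in a fit together and moderated by the other features. Of the RefSeq sequences, only miR-125a-5p and miR-125b-5p are printed.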

Additional observations from a re-analysis of the deposited data

Results flagged for a closer look

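For *Gad1* mRNA the fold change over GFP differed between the mRNA experiments: the value of miR124sp minus that of miR125sp was 0.57 on the log2 scale (edgeR adjusted p = 0.0217). The control mice differed as well, with *Gad1* at a log2 difference of -0.50 in the GFP mice of the miR-124 experiment against those of the miR-125 experiment. Against the latter, *Gad1* in miR124sp mice was at a log2 fold change of 0.12 and did not pass. Leaving out 1 mouse in turn gave 0.47 to 0.71 for the difference between the experiments, with adjusted p from 0.00295 to 0.0614 in edgeR.

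The 3′UTR of *Vip*, which lay outside the main test because of low sham counts, averaged 19.4 CPM in the miR292sp RIP libraries, against 2.71 CPM in sham.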

How the results depend on the processing

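For miR292sp against sham, 1 member was higher and 4 were lower with TMM, and likewise with DESeq2 size factors, in place of 4 and 0. *Gad2*, *Sst* and *Cck* then reversed, at log2 -0.82, -0.88 and -1.09 with TMM and -0.80, -0.86 and -1.06 with size factors. In CPM the enrichment of *Gad1* was 1.72 and of *Gad2* 0.534. For miR124sp against miR292sp, scaling around *Gapdh* gave 0 higher and 2 lower, with *Gad2* reversed at -0.30. DESeq2, no filter and a fit of only these groups each gave 1 lower member (*Dlx5*), and filterByExpr and no filter each left 1 higher (*Npy*), 1 member in all with filterByExpr. For miR125sp against miR292sp, scaling around *Gapdh* called 2 members, both lower, and DESeq2 and the fit of only these groups 1 each, higher (*Npy*). For mRNA of miR124sp, DESeq2 called 5 members, all higher, and the other GFP mice as reference 1.

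With 1 mouse left out, the members called, all of them higher, were 0 to 5 for miR124sp mRNA and 0 to 3 for the difference of effects. Over all genes, 461 to 2032 were then higher and 508 to 2031 lower for miR124sp mRNA. For the difference of effects 494 to 1667 were higher and 584 to 1323 lower. With 1 RIP library left out, its group kept a lone library, which was taken to vary like the other groups. The log2 fold change of miR292sp over sham then ran from 2.02 to 2.44 for *Gad1* and 0.08 to 0.97 for *Gad2*. *Slc32a1* ran from 1.19 to 3.78 and *Dlx5* from 1.81 to 2.84. For miR124sp against miR292sp *Gad2* ran from 0.43 to 0.96 and *Npy* from 1.28 to 1.93. Of the settings tried for single members, 641 gave the same result, 31 lost a call, 25 gained a call and 7 reversed. In 8 more a relative enrichment moved by more than its SD. The same result includes members called in neither setting and relative enrichments that stayed within that SD.

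Counts over all features also moved by over 1.5 times. For miR124sp against miR292sp they were 625 higher and 502 lower with DESeq2, 227 and 169 with filterByExpr and 531 and 595 in the fit of only these groups. With no filter they were 317 and 711. For miR125sp against miR292sp they were 263 and 107 with DESeq2, 29 and 6 with filterByExpr, 124 and 158 with no filter and 273 and 241 in the fit of only these groups. For mRNA of miR124sp they were 397 and 365 against the other GFP mice. For mRNA of miR125sp they were 69 and 72 with DESeq2, 88 and 118 with no filter and 2 and 9 in a fit of all mice. For the difference of effects they were 326 and 361 with a term for the header mark. Within each experiment, that term leaves the effect of miR124sp resting on miR124sp mouse 14 and that of miR125sp on GFP mouse 4. Counts for those fits are not given.

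No paired analysis was possible because the groups compared do not share at least 2 replicate numbers that mark the same animal or batch. With 2 libraries a group, low counts such as the 16 of *Slc32a1* in sham limit what can be detected.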
